A study of Mus musculus with 9 samples.

Results

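The bone morphogenetic protein (BMP) genes described here were 9 genes chosen by symbol out of 21950 protein-coding genes with values in these libraries. They were 4 ligands (Bmp2, Bmp4, Bmp6 and Bmp7), 3 secreted proteins that bind BMPs (Grem1, Chrdl1 and Bmper) and 2 genes that BMP receptors switch on (Id1 and Id3). The genes were picked by name, with earlier results of these data known, and the FPKM of all deposited transcripts of a gene were summed. FPKM is the number of sequenced fragments of a transcript scaled to transcript length and to how many fragments mapped in that library, which makes it a level per length, so levels of different genes can be set side by side.

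BMPs are secreted dimers that bring type I and type II receptor kinases together, and the type I receptor then phosphorylates Smad1, Smad5 and Smad9, which enter the nucleus with Smad4. Antagonists such as gremlins, chordins and noggin trap the ligand outside the cell, and the Id genes, which encode inhibitors of basic helix-loop-helix transcription factors, are among the most direct targets of the Smads. In the kidney BMP7 is needed for nephron formation and is made by the adult tubule and podocyte, while gremlin 1 is needed for the first outgrowth of the ureteric bud and is little expressed in the healthy adult kidney.

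RNA from the kidney cortex of male mice was sequenced in 3 groups of 3 (control, dbdb and dbR), 1 library to a mouse, and the groups were compared to ask how diabetes and its treatment with rosiglitazone change the renal transcriptome. The dbdb mice were homozygous for the db mutation of the leptin receptor on the C57BL/KsJ background and received vehicle. The dbR mice had the same genotype and received rosiglitazone, which activates the nuclear receptor PPARγ, by gavage at 20 mg/kg/day for 8 weeks, from 7 to 15 weeks of age. The control mice were db/m littermates, which carry 1 db allele, and the sources used here do not say whether they received vehicle. All cortices were taken at 15 weeks. The db mutation is carried by every cell of the animal, so its effect on the kidney cannot be told apart from that of the obesity and hyperglycaemia it causes. In pieces of whole cortex, fewer cells of a type and less RNA per cell cannot be told apart either.

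The 9 libraries were similar in depth, with an estimated 24.3 M to 30.4 M fragments each, and mitochondrial transcripts held 26.85% to 32.83% of the mRNA FPKM. The mean correlation of a library with the others of its group was between 0.986 and 0.991 over all tested genes, and no library stood apart by this measure. Markers of the cortex were present in every library, and the 6 proximal tubule markers summed to between 2470 and 3100 FPKM. The 4 adipocyte markers summed to at most 0.756 FPKM, the 3 adrenal cortex markers to at most 1.37 and the 3 urothelium markers to at most 2.25. The urothelium maximum was in control replicate 1. In that library the 2 smooth muscle markers summed to 21.9 FPKM, against 7.63 to 12.0 in the others. A gene was tested if its mean over the 9 libraries was at least 0.1 FPKM, and it was called at a Benjamini-Hochberg adjusted p under 0.05 over the 14537 genes tested with limma. By this rule 26.4% of the tested genes were called in dbdb vs. control, 24.1% in dbR vs. control and 0.743% in dbR vs. dbdb. Of the calls, 49.5% were upregulated in dbdb vs. control, 51.1% in dbR vs. control and 75.9% in dbR vs. dbdb. After mitochondrial transcripts had been removed and sums made equal, these shares were 78.3%, 70.5% and 48.6%, and the median of all genes moved to 0.15, 0.09 and -0.06 on the log2 scale. With the libraries scaled to their 75th percentile the share in dbR vs. control was 62.3%.

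Of the 9 genes, 8 passed the filter and 4 were called in dbdb vs. control. Grem1, Bmp4 and Bmp6 were upregulated, against 13.1% of all tested genes, and Chrdl1 was downregulated, against 13.4%. In dbR vs. control 4 were called as well. Bmp2, Bmp4 and Bmp6 were upregulated, against 12.3% of all genes, and Chrdl1 was downregulated, against 11.8%. These 2 comparisons share the control libraries. No gene of the 9 was called in dbR vs. dbdb by limma, where 2, Bmp2 and Id3, had an unadjusted p under 0.05, which 17.5% of all genes had. The groups did not overlap for 5 of the 8 in dbdb vs. control, for 4 in dbR vs. control and for none in dbR vs. dbdb, and 42.4%, 41.9% and 22.7% of all tested genes had no overlap in these comparisons. The median log2 fold change of the 8 was 0.22, 0.43 and -0.06 in that order, against -0.003, -0.001 and -0.002 for all tested genes.

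**Figure D1:**
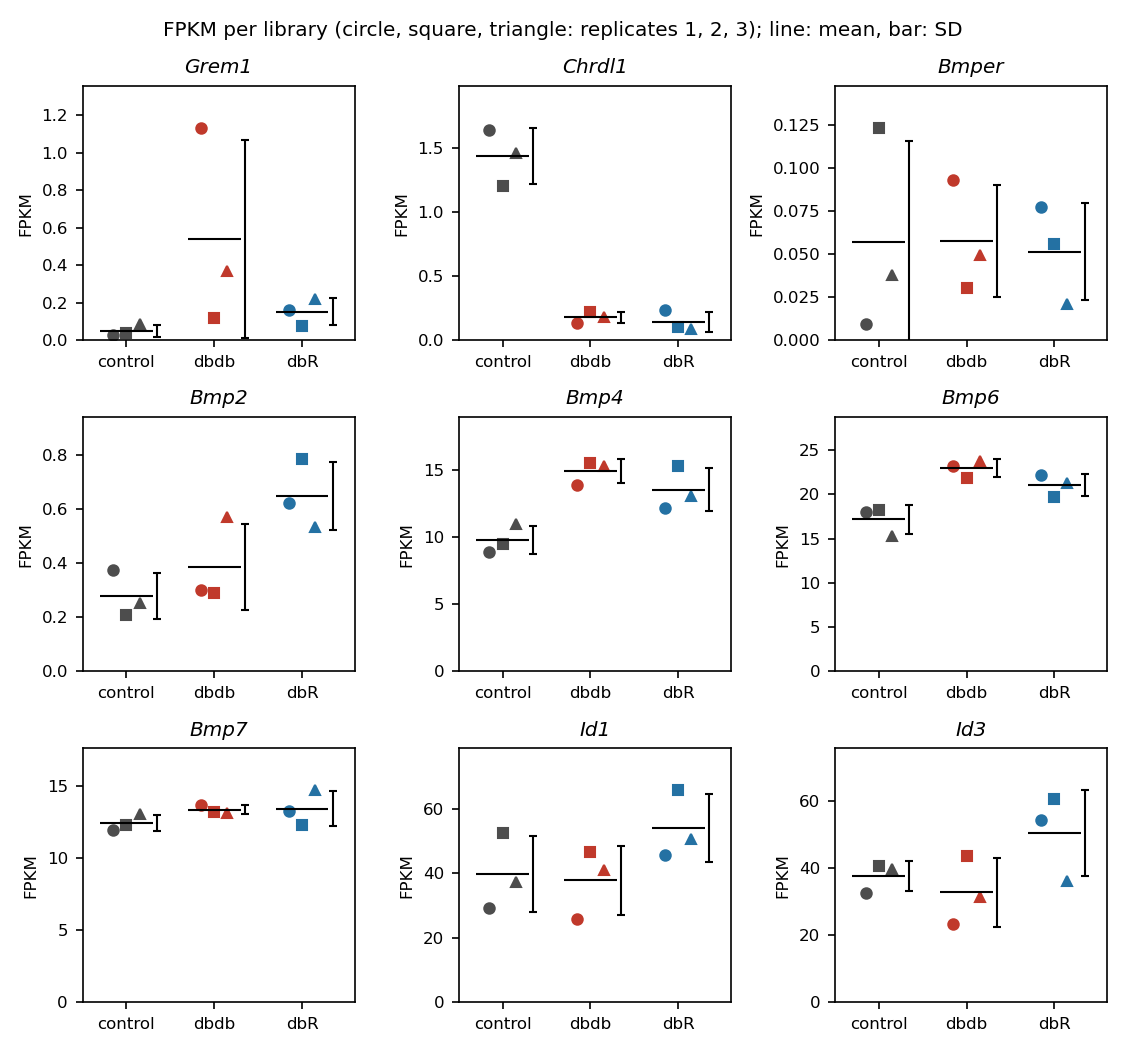
FPKM of the 9 genes in each library, with circles, squares and triangles for replicates 1, 2 and 3 of control (grey), dbdb (red) and dbR (blue), a line at the mean and a bar of 1 SD; every axis starts at 0. Chrdl1 was at 1.21 to 1.64 FPKM in control mice and at or below 0.237 in all 6 db/db libraries, and Grem1 was highest, at 1.13, in dbdb replicate 1.

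Promoter sequence of the genes was read from RefSeq (mouse assembly GRCm38.p6), whose table held windows of 5 of the 9 genes, Grem1, Bmper, Bmp4, Bmp6 and Id3. The stretches printed here, from 200 bases before to 20 bases after the RefSeq start, are those of Grem1 and Bmp4, which were upregulated in dbdb mice. The Grem1 stretch lies at chr2:113758629-113758848 on the minus strand, and its start is 2 bp from that of the deposited transcript. That of Bmp4 lies at chr14:46390650-46390869 on the minus strand, and its start is the start of a deposited transcript. The RefSeq starts of Bmp6 and Id3 lie 609 bp and 325 bp downstream of the starts of the deposited transcripts, so that their windows lie inside these transcripts and are not shown. Capitals mark the motif GGCGCC, a GC-rich element bound by Smads, in Grem1.
Grem1: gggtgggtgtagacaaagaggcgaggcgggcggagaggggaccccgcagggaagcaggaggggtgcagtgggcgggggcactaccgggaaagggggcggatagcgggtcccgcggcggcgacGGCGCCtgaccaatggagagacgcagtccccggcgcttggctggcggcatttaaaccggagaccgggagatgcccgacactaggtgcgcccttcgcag
Bmp4: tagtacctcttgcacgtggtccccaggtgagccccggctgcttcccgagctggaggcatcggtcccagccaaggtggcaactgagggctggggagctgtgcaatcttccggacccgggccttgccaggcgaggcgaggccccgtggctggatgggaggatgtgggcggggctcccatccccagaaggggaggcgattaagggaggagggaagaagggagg
GGCGCC, which is its own reverse complement, starts 78 bases before the Grem1 start, was in no other of the 5 windows of 250 bases before to 50 after the start, and was in 11.9% of the 32851 windows in the table. GTCTAGAC, the Smad box in its palindromic form, was in none of the 5 and in 0.213% of all windows. A match of letters is a description of the sequence and not of binding.

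Among the ligands, Bmp6, Bmp7 and Bmp4 were expressed at a similar order of magnitude and Bmp2 far lower. In control mice the mean was 17.2 FPKM for Bmp6, 12.4 for Bmp7, 9.78 for Bmp4 and 0.279 for Bmp2. Bmp6 stood above Bmp7 in each of the 9 libraries, and Bmp4 and Bmp7 were the neighbours whose order changed. Bmp4 was below Bmp7 in each control library, above it in each dbdb library, and above it in 1 dbR library of 3.

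Bmp4 (ENSMUSG00000021835, chr14:46383520-46390669, minus strand, 2 deposited transcripts), a ligand that acts early in ureter and nephron development, was upregulated in db/db mice. It was at 8.92, 9.46 and 11.0 FPKM in control replicates 1 to 3, at 13.9, 15.5 and 15.3 in dbdb and at 12.2, 15.3 and 13.1 in dbR. Every db/db library, treated or not, lay above every control library, and the dbdb and dbR libraries overlapped. The means were 9.78 ± 1.06 (SD, n = 3), 14.9 ± 0.879 and 13.5 ± 1.62 FPKM. In dbdb vs. control the log2 fold change was 0.61 (SE 0.10, limma adjusted p = 0.00235), and the call held in all 18 alternative analyses. In dbR vs. control it was 0.46 (SE 0.10, adjusted p = 0.00971). This call was lost when only the transcript with the highest mean was used (0.22, adjusted p = 0.302), which held 59.2% of the FPKM of the gene in control mice, 52.7% in dbdb and 49.8% in dbR. Between dbR and dbdb the difference was -0.14, with a 95% confidence interval of -0.37 to 0.09 (adjusted p = 0.511).

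Bmp6 (ENSMUSG00000039004, chr13:38345107-38500302, plus strand), best known as the signal of iron stores from liver endothelium to the hepatocyte, was the highest of the 4 ligands. Its FPKM was 18.0, 18.2 and 15.3 in control, 23.2, 21.9 and 23.8 in dbdb and 22.1, 19.7 and 21.2 in dbR. The control libraries again lay below all 6 db/db libraries. Relative to control the log2 fold change was 0.42 in dbdb (SE 0.08, adjusted p = 0.00438), called in all 18 alternatives, and 0.29 in dbR mice (SE 0.08, adjusted p = 0.0251). The latter call was lost without control replicate 3 (0.21, adjusted p = 0.0743), without dbR replicate 1 (0.26, adjusted p = 0.0843) and without dbR replicate 3 (0.29, adjusted p = 0.0693). The interval for dbR vs. dbdb was -0.31 to 0.05 around -0.13.

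Bmp7 (ENSMUSG00000008999, chr2:172868012-172940321, minus strand), a ligand studied as a protective factor in the injured kidney, was at 12.0, 12.3 and 13.0 FPKM in control, at 13.7, 13.2 and 13.1 in dbdb and at 13.3, 12.3 and 14.7 in dbR. Every dbdb library exceeded every control library by a narrow margin, and dbR overlapped with both. No comparison was called. The log2 fold change was 0.10 in dbdb vs. control (95% interval -0.06 to 0.27, adjusted p = 0.342), 0.00 in dbR vs. dbdb (-0.16 to 0.17) and 0.11 in dbR vs. control (-0.06 to 0.27). Within control and within dbdb mice Bmp7 varied least of the 8 tested genes, with coefficients of variation of 4.34% and 2.29%. With mitochondrial transcripts left out and equal sums, the difference in dbdb vs. control was 0.26 and was called (adjusted p = 0.0295), where the median of all genes was 0.15.

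Bmp2 (ENSMUSG00000027358, chr2:133552159-133562885, plus strand), a close relative of Bmp4, was the only ligand of the 4 called in dbR mice and not in dbdb mice. It was at 0.375, 0.209 and 0.254 FPKM in control, at 0.30, 0.292 and 0.572 in dbdb and at 0.624, 0.785 and 0.536 in dbR, which rests on an estimated 18.7 to 76.8 fragments a library. The dbR libraries were above all control libraries, and only dbR replicate 3 was below a dbdb library, replicate 3. In dbR vs. control the log2 fold change was 0.99 (SE 0.27, adjusted p = 0.0238), a ratio of the means of 2.32. The call was lost without control replicate 2 (0.85, adjusted p = 0.0774), control replicate 3 (0.95, adjusted p = 0.0674), dbR replicate 1 (1.01, adjusted p = 0.0601) or dbR replicate 2 (0.86, adjusted p = 0.0840). In dbR vs. dbdb it was 0.65 (95% interval 0.05 to 1.25), which did not pass the adjustment (limma adjusted p = 0.248), and in dbdb vs. control 0.34 (-0.26 to 0.94, adjusted p = 0.383). The value in dbR vs. dbdb is itself the test of the difference between the treated and untreated db/db mice.

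In both comparisons with control, markers of the distal convoluted tubule and of intercalated cells moved with Bmp4 and Bmp6. Some of the markers of principal cells and podocytes did so too. Both distal convoluted tubule markers (Slc12a3 and Pvalb) were upregulated in dbdb mice and in dbR mice relative to control, with sums of 154 to 173 FPKM in control, 281 to 308 in dbdb and 315 to 355 in dbR. The 3 intercalated cell markers were also upregulated in both, from 27.1 to 28.3 FPKM in control to 43.2 to 49.1 in dbdb and 49.2 to 52.6 in dbR. Of these, Atp6v1g3 was also called as higher in dbR vs. dbdb (0.52, limma adjusted p = 0.0251), in 11 of 18 alternatives. Bmp4 and Bmp6 were not called in that comparison, with log2 fold changes of -0.14 and -0.13. The 6 proximal tubule markers had mean sums of 2723 FPKM in control, 2795 in dbdb and 2730 in dbR, with 1, Slc5a2, upregulated in dbdb vs. control and 1, Slc22a6, downregulated in both comparisons with control. Of the 2 markers of the thick ascending limb, none was called in dbdb vs. control, and 1, Slc12a1, was upregulated in dbR vs. control. Of the 3 principal cell markers 2, Aqp2 and Scnn1g, and of the 5 podocyte markers 2, Nphs1 and Podxl, were upregulated in both comparisons with control, and the podocyte markers summed to 73.4 to 83.8 FPKM in control, 86.0 to 92.3 in dbdb and 79.4 to 96.6 in dbR. The part of these cells in the results was not tested.

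Of the secreted antagonists, Grem1 was upregulated in dbdb mice and Chrdl1 was lower in all db/db mice. Grem1 (ENSMUSG00000074934, chr2:113746164-113758646, minus strand, 1 transcript of 4148 bases in 2 exons) encodes gremlin 1, which binds BMP2, BMP4 and BMP7. It was at 0.0265, 0.0373 and 0.0863 FPKM in control, at 1.13, 0.119 and 0.368 in dbdb and at 0.163, 0.0758 and 0.222 in dbR. All dbdb libraries were above all control libraries, the dbdb libraries were spread most widely, with a coefficient of variation of 97.7%, and dbR overlapped with both other groups. These levels rest on few reads, an estimated 2.9, 3.9 and 9.9 fragments in control, 114.8, 12.7 and 38.9 in dbdb and 20.6, 8.7 and 22.4 in dbR.

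The mean of Grem1 was 0.050 ± 0.0319 FPKM (SD, n = 3) in control, 0.539 ± 0.526 in dbdb and 0.154 ± 0.0737 in dbR, and the ratio of the dbdb mean to the control mean was 10.8. On the log2(FPKM + 0.1) scale, which understates the change of so low a gene, the difference was 1.76 (SE 0.54, limma adjusted p = 0.0358). This call depended on single libraries. Without dbdb replicate 1 the difference was 1.12 (adjusted p = 0.0887), and it was also not called without dbdb replicate 3 (adjusted p = 0.0691) or without control replicate 1, 2 or 3 (adjusted p = 0.0904, 0.0866 and 0.0577). With a pseudocount of 1 in place of 0.1 (adjusted p = 0.0752) and in a fit to the 6 libraries alone (adjusted p = 0.0628) the call was lost too. The direction was the same in all 17 alternatives. The difference of dbR vs. dbdb was -1.03 (95% interval -2.22 to 0.17, adjusted p = 0.359), and that of dbR vs. control was 0.74 (-0.46 to 1.93, adjusted p = 0.356).

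Of the principal cell markers, Aqp2 and Scnn1g were highest in dbdb replicates 1 and 3, the libraries highest in Grem1. Aqp3 was high in replicate 1 alone. The intercalated cell markers summed to 43.5, 43.2 and 49.1 FPKM in dbdb replicates 1, 2 and 3. The 3 principal cell markers (Aqp2, Aqp3 and Scnn1g) summed to 204, 116 and 154 FPKM in dbdb replicates 1, 2 and 3, to 77.4 to 97.3 in control and to 119 to 140 in dbR. Of the 3 principal cell markers, 2, Aqp2 and Scnn1g, were upregulated in dbdb vs. control. None of the 3 was called in dbR vs. dbdb, and none was near 0 in any group. Their part in the levels of Grem1 was not tested.

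Chrdl1 (ENSMUSG00000031283, chrX:143285674-143394262, minus strand, 4 deposited transcripts), encoding chordin-like 1, an antagonist of BMP4, had the largest absolute log2 fold change of FPKM + 0.1 among the 8 tested genes in both comparisons with control, though by the ratio of means Grem1 changed more in dbdb vs. control. It was at 1.64, 1.21 and 1.46 FPKM in control, at 0.138, 0.223 and 0.179 in dbdb and at 0.237, 0.106 and 0.0925 in dbR. The lowest control library was above the highest db/db library, and dbdb and dbR overlapped. Its mean was 7.99 times as high in control as in dbdb mice and 9.90 times as high as in dbR mice. The log2 fold change was -2.46 (SE 0.25, adjusted p = 0.000154) in dbdb vs. control and -2.69 (SE 0.25, adjusted p = 0.000105) in dbR vs. control, and both calls held in all 17 alternatives. In dbR vs. dbdb it was -0.23 (95% interval -0.79 to 0.34, adjusted p = 0.695).

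The division of Chrdl1 among its transcripts was less certain than its sum. In control mice ENSMUST00000074660, of 9 exons, held 72.0% of the FPKM of the gene and ENSMUST00000063029, of 11 exons, held 19.6%. In dbdb mice, at the much lower level, these shares were 30.9% and 31.3%, and ENSMUST00000166406 held 37.9%. Cufflinks had divided few reads among overlapping transcripts here, so the shares were not tested. Macrophage markers were lower in the same libraries, and all 3 (Adgre1, Csf1r and Cd68) were downregulated in dbdb vs. control, with sums of 13.3 to 16.4 FPKM in control, 5.13 to 6.79 in dbdb and 7.53 to 8.56 in dbR. In dbR vs. control 1 of the 3, Csf1r, was downregulated. Their part in the result for Chrdl1 was not tested.

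Bmper (ENSMUSG00000031963, chr9:23223076-23485200, plus strand), which encodes a secreted BMP-binding protein of endothelial cells, had a mean of 0.0553 FPKM and did not pass the filter. It was at 0.00971, 0.123 and 0.0380 FPKM in control, at 0.0932, 0.0303 and 0.0494 in dbdb and at 0.0771, 0.0556 and 0.0213 in dbR, an estimated 1.0 to 11.7 fragments a library. All groups overlapped. In a fit with no filter its log2 fold changes were 0.05, -0.06 and -0.00 in dbdb vs. control, dbR vs. dbdb and dbR vs. control (limma adjusted p = 0.933, 0.96 and 1). The SE of each was 0.27.

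The target genes were the highest of the 9 in level. Id1 (ENSMUSG00000042745, chr2:152736251-152737410, plus strand, 2 transcripts) was at 29.4, 52.5 and 37.3 FPKM in control, at 25.8, 46.7 and 40.9 in dbdb and at 45.8, 65.7 and 50.7 in dbR. Its groups overlapped in all 3 comparisons. The means were 39.7 ± 11.7, 37.8 ± 10.8 and 54.0 ± 10.4 FPKM (SD, n = 3). The log2 fold change was -0.07 in dbdb vs. control (95% interval -0.63 to 0.48, adjusted p = 0.859), with a sign that turned with the scaling. It was 0.54 in dbR vs. dbdb (-0.01 to 1.10, adjusted p = 0.299) and 0.47 in dbR vs. control (-0.09 to 1.02, adjusted p = 0.204). The last difference was called with the replicate number as a block (limma adjusted p = 0.0138) and in no other alternative.

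Id3 (ENSMUSG00000007872, chr4:136143497-136145755, plus strand) was at 32.4, 40.7 and 39.8 FPKM in control, at 23.3, 43.6 and 31.3 in dbdb and at 54.3, 60.6 and 36.0 in dbR. dbR replicates 1 and 2 were above every other library, and dbR replicate 3 was among the control and dbdb libraries. In dbR vs. dbdb the log2 fold change was 0.63 (95% interval 0.11 to 1.15), which did not pass the adjustment in the limma fit (adjusted p = 0.204), and it was positive in all 18 alternatives. It was -0.24 in dbdb vs. control (-0.76 to 0.28, adjusted p = 0.486) and 0.39 in dbR vs. control (-0.13 to 0.91, adjusted p = 0.257).

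**Figure D2:**
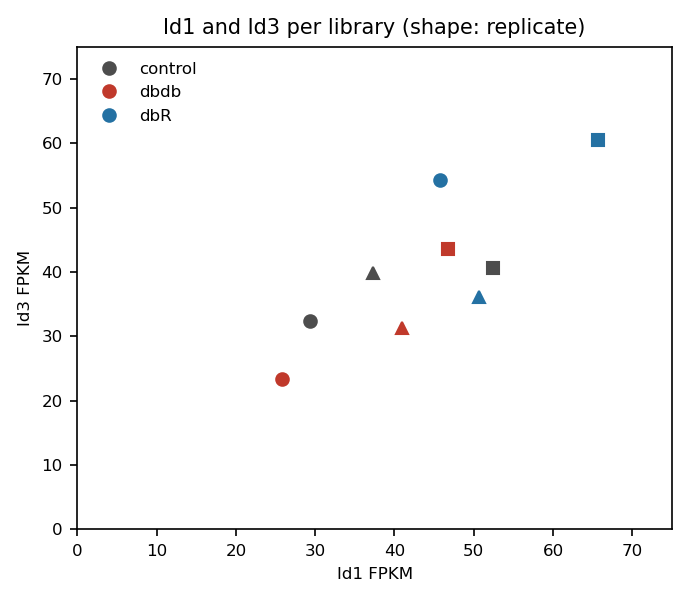
FPKM of Id3 against that of Id1 in each library, on linear scales from 0; colours give the group (control grey, dbdb red, dbR blue) and circles, squares and triangles replicates 1, 2 and 3. dbR replicate 2 stands highest on both axes (Id1 65.7, Id3 60.6 FPKM), and dbR replicate 3 lies among the control and dbdb libraries.

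Id1, Id3 and Bmp2 had their highest means in dbR mice, where the sums of endothelial and of stromal markers also lay above those in dbdb mice. The 5 endothelial markers summed to 101 to 110 FPKM in control, 74.3 to 81.3 in dbdb and 105 to 125 in dbR. Of these, 4 were downregulated in dbdb vs. control (Pecam1, Cdh5, Kdr and Emcn) and 3 were called as higher in dbR vs. dbdb (Kdr, Emcn and Tek), where 0.743% of all tested genes were called. Each of the 3 calls was lost without dbR replicate 2 and without dbR replicate 3, with 2 and 10 genes called in all, and they held in 11, 14 and 4 of 18 alternatives. Of the 5, 1, Tek, was upregulated in dbR vs. control. The 6 markers of mesangial cells, pericytes and fibroblasts summed to 24.6 to 33.2, 24.5 to 34.2 and 36.7 to 47.1 FPKM. Of the 6, 1, Pdgfrb, was called as higher in dbR vs. dbdb, in 12 of 18 alternatives and not without dbR replicate 2 or 3, and Gata3 was at nearly the same mean in both groups. Pdgfrb, Pdgfra and Gata3 were upregulated in dbR vs. control. None of these 11 markers was at 0. Their part in the levels of Id1, Id3 and Bmp2 was not tested.

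**Figure D3:**
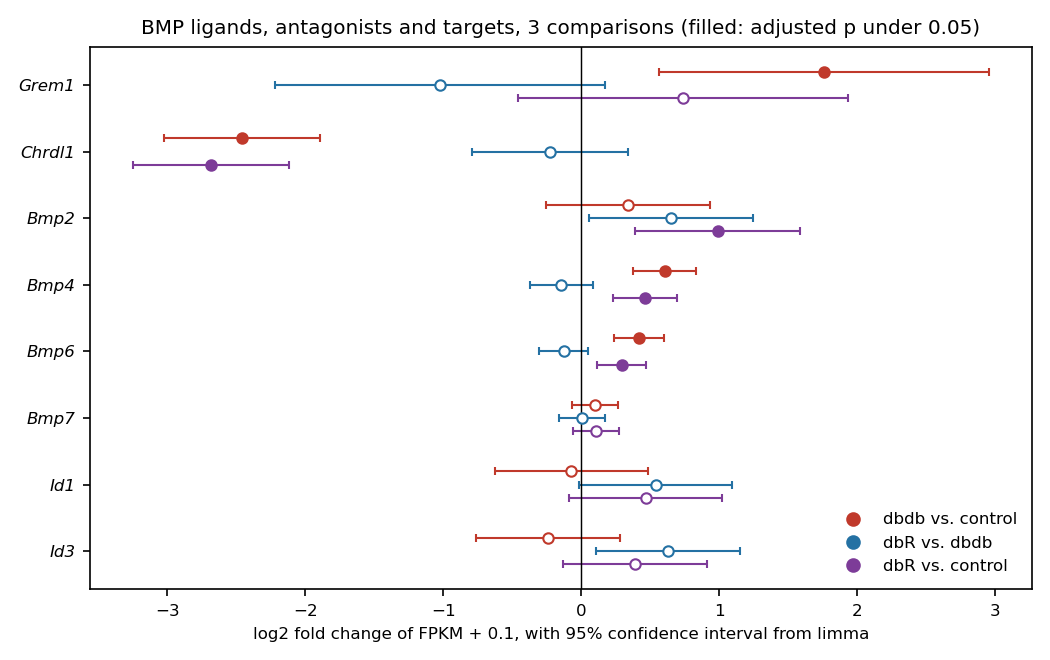
log2 fold change of FPKM + 0.1 of the 8 tested genes in dbdb vs. control (red), dbR vs. dbdb (blue) and dbR vs. control (purple), with the 95% confidence interval from limma; filled points had an adjusted p under 0.05. Chrdl1 was at -2.46 and -2.69 in the comparisons with control, Bmp4 and Bmp6 were above 0 in both, and no point of dbR vs. dbdb is filled.

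Beside the 9 genes, 55 other genes of the pathway were listed by role, of which 54 had values and 43 passed the filter. In dbdb vs. control 11 were upregulated and 2 downregulated, and these 13 are 30.2% of the 43, against 26.4% of all tested genes. In dbR vs. control 16 were upregulated and 1 downregulated, 39.5% against 24.1%. In dbR vs. dbdb none was called by limma, with 7 at an unadjusted p under 0.05, 16.3% against 17.5% of all tested genes. Their median log2 fold change was 0.15 in dbdb vs. control, 0.03 in dbR vs. dbdb and 0.27 in dbR vs. control, against -0.003, -0.002 and -0.001 for all tested genes. Of the 13 calls in dbdb vs. control 7 held without each of the 9 libraries in turn (Smurf2, Chrdl2, Nbl1, Twsg1, Sostdc1, Sost and Crim1), and of the 17 in dbR vs. control 8 did (Bmpr1b, Eng, Smad6, Smurf2, Chrdl2, Nbl1, Twsg1 and Sostdc1).

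The other ligands were little expressed. Of 9 listed, 3 passed the filter and none was called in any comparison; the highest means were 0.443 FPKM for Bmp8a and 0.402 for Bmp3. Bmp10 and Gdf2, the ligands that circulate and act on endothelium, were listed at 0 in every library. For Bmp8a dbR mice differed from control by 0.73 on the log2 scale (adjusted p = 0.0728).

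The receptors were expressed throughout, and 1 of 7, Acvrl1, was upregulated in dbdb vs. control, 14.3% against 13.1% of all tested genes. Acvrl1, the type I receptor of endothelial cells, was at 2.82 to 3.92 FPKM in control, 4.58 to 5.01 in dbdb and 4.41 to 5.27 in dbR. Relative to control the log2 fold change was 0.46 in dbdb (adjusted p = 0.0251) and 0.47 in dbR mice (adjusted p = 0.0247). The first call was lost without control replicate 2, dbdb replicate 2 or dbdb replicate 3, and the second without control replicate 2, dbR replicate 1 or dbR replicate 2 (adjusted p from 0.0599 to 0.0842), and both were lost with the highest transcript alone (adjusted p = 0.801 and 0.291). Bmpr1b, a type I receptor for BMPs and GDF5, was upregulated in dbR vs. control (0.48, adjusted p = 0.0101), but not with the highest transcript alone (0.24, adjusted p = 0.562). Bmpr1a and Bmpr2, the receptors with the highest levels, had means of 19.7 and 18.3 FPKM and were not called.

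Among 5 co-receptors with values 4 were tested, and Eng was the only gene called, 25% of the 4 in each comparison with control, where 26.4% and 24.1% of all tested genes were called. Eng encodes endoglin, which presents ligands to ACVRL1 on endothelium, and was at 21.9, 24.1 and 18.9 FPKM in control, 26.3, 27.2 and 26.8 in dbdb and 33.3, 34.9 and 32.1 in dbR. The 3 groups did not overlap, in that order. The log2 fold change was 0.31 between dbdb and control (adjusted p = 0.0203), 0.32 in dbR vs. dbdb (adjusted p = 0.0955, not called) and 0.63 in dbR vs. control (adjusted p = 0.000627). The call in dbdb vs. control was lost without control replicate 3 (0.22, adjusted p = 0.0513), without dbdb replicate 2 (0.30, adjusted p = 0.0619) and with the highest transcript alone (adjusted p = 0.0504). In dbdb vs. control Eng moved opposite to the 4 endothelial markers that were downregulated, and in dbR vs. dbdb its libraries lay higher without overlap, as did those of all 5 endothelial markers.

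Of the 8 Smads and Smad ubiquitin ligases, 3 were called in dbdb mice and 4 in dbR mice relative to control, 37.5% and 50% where 26.4% and 24.1% of all tested genes were called. Smad6, an inhibitory Smad that BMPs induce, was at 1.99 to 2.42 FPKM in control, 2.62 to 3.43 in dbdb and 3.06 to 3.62 in dbR. Relative to control it was upregulated by 0.46 in dbdb mice (adjusted p = 0.0262) and by 0.63 in dbR mice (adjusted p = 0.00603). The first call was lost without control replicate 1 or 3 or without dbdb replicate 2 or 3 (adjusted p from 0.0629 to 0.0837). Smurf2, a ligase that marks Smads and receptors for degradation, was downregulated, from 22.0, 22.1 and 22.0 FPKM in control to 16.5, 15.2 and 17.1 in dbdb and 16.5, 17.8 and 18.4 in dbR (-0.44, adjusted p = 0.00118, and -0.33, adjusted p = 0.00584). Its relative Smurf1 was upregulated in dbdb vs. control (0.31, adjusted p = 0.0227), a call lost without control replicate 2 or 3 or dbdb replicate 3 (adjusted p from 0.0621 to 0.0753). Smad1 (0.32, adjusted p = 0.0247) and Smad9 (0.74, adjusted p = 0.0449), signalling Smads of BMP receptors, were upregulated in dbR vs. control. Smad1 lost its call without control replicate 1 or 3 or without any 1 dbR library (adjusted p from 0.054 to 0.0835), and Smad9 without control replicate 1 or 3, dbdb replicate 1 or any 1 dbR library (adjusted p from 0.0541 to 0.15). Smad4, Smad5 and Smad7 were not called.

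The extracellular antagonists and modulators held most of the calls. Of 18 listed, 16 passed the filter. Grem1, Chrdl1 and Bmper are not in this list, since they were counted among the 9 genes. Of these, Chrdl1 was downregulated in both comparisons with control and Grem1 was upregulated in dbdb vs. control. In dbdb vs. control 7 were upregulated and none downregulated, or 43.8% upregulated against 13.1% of all tested genes, with a median of 0.49 on the log2 scale. In dbR vs. control 9 were upregulated and none downregulated, 56.2% against 12.3%, with a median of 0.44. The medians of all tested genes were -0.003 and -0.001. None was called in dbR vs. dbdb by limma or under any alternative, where 2 had an unadjusted p under 0.05, 12.5% against 17.5% of all tested genes, and the median was -0.12. Without single libraries the count in dbR vs. control was between 4 and 9, with 4 without control replicate 3 and 5 without control replicate 2 or dbR replicate 1. The markers of the distal convoluted tubule (2 of 2), intercalated cells (3 of 3) and principal cells (2 of 3) were upregulated in the same comparisons, with Slc12a3 at 0.98 and 1.08 on the log2 scale and Aqp2 at 1.34 and 0.93 in dbdb and dbR vs. control. Their part in the calls of the modulators was not tested.

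Chrdl2, encoding chordin-like 2, moved opposite to its relative Chrdl1. It was at 0.140, 0.149 and 0.212 FPKM in control, 0.916, 1.53 and 0.984 in dbdb and 0.735, 1.13 and 0.763 in dbR, with all 6 db/db libraries above control. Relative to control the log2 fold change was 2.19 in dbdb (SE 0.24, adjusted p = 0.000193) and 1.86 in dbR mice (SE 0.24, adjusted p = 0.000531), and both calls held in all 17 alternatives. The mean of Chrdl1 was 1.44 FPKM and that of Chrdl2 0.167 in control mice, and in dbdb mice the means were 0.180 and 1.14.

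Sostdc1, which encodes the BMP and Wnt antagonist USAG-1 of the distal tubule, was the most highly expressed of the antagonists. It was at 21.3, 20.9 and 23.7 FPKM in control, 36.2, 31.8 and 37.3 in dbdb and 32.3, 32.8 and 30.0 in dbR, with no overlap between control and either other group. Relative to control the log2 fold change was 0.67 in dbdb (SE 0.08, adjusted p = 0.000256) and 0.53 in dbR mice (SE 0.08, adjusted p = 0.0011), called in all alternatives. Twsg1, whose product twisted gastrulation binds BMPs together with chordin, was at 11.6, 11.3 and 10.6 FPKM in control, 16.4, 15.6 and 17.6 in dbdb and 15.4, 16.2 and 15.0 in dbR. Its differences were 0.56 (adjusted p = 0.000342) and 0.47 (adjusted p = 0.00103), also called in all alternatives. Nbl1, encoding the gremlin relative DAN, was upregulated by 0.56 in dbdb (adjusted p = 0.00552) and by 0.59 in dbR (adjusted p = 0.00492).

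Sost, encoding sclerostin, was upregulated in dbdb vs. control (1.24, SE 0.28, adjusted p = 0.0108) at levels of 0.152 to 0.185 FPKM in control and 0.413 to 0.770 in dbdb; in dbR vs. control the difference was 0.63 (adjusted p = 0.137). Crim1, encoding a membrane protein that binds BMPs, was upregulated in dbdb (0.34, adjusted p = 0.0106) and in dbR (0.28, adjusted p = 0.0258), the latter not without control replicate 1 or 3 or dbR replicate 1 (adjusted p from 0.0566 to 0.0874). Kcp, encoding kielin/chordin-like protein, which enhances BMP signalling, was upregulated in dbdb (0.49, adjusted p = 0.0237) and in dbR (0.52, adjusted p = 0.0192). Its first call was lost without any 1 control library or dbdb replicate 1 or 2 (adjusted p from 0.0525 to 0.0709). Its second was lost without control replicate 2 or 3 or dbR replicate 1 or 3 (adjusted p from 0.0505 to 0.07) and with the highest transcript alone (adjusted p = 0.1).

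Bambi, a pseudoreceptor (0.64, adjusted p = 0.0232), Fstl1, a follistatin-like protein (0.45, adjusted p = 0.031), and Bmp1, a protease that cleaves chordin (0.32, adjusted p = 0.0444), were upregulated in dbR vs. control and not called in dbdb vs. control. None of the 3 differed between dbR and dbdb by an adjusted p under 0.05. Bambi lost its call without any 1 control library or dbR replicate 2 or 3 (adjusted p from 0.0537 to 0.0798), and Fstl1 without control replicate 2 or 3 or dbR replicate 1 or 2 (adjusted p from 0.0572 to 0.106). Bmp1 lost it without any 1 of the 9 libraries (adjusted p from 0.0516 to 0.13). Noggin and chordin themselves, Nog and Chrd, had means of 0.233 and 0.992 FPKM and were not called.

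**Figure D4:**
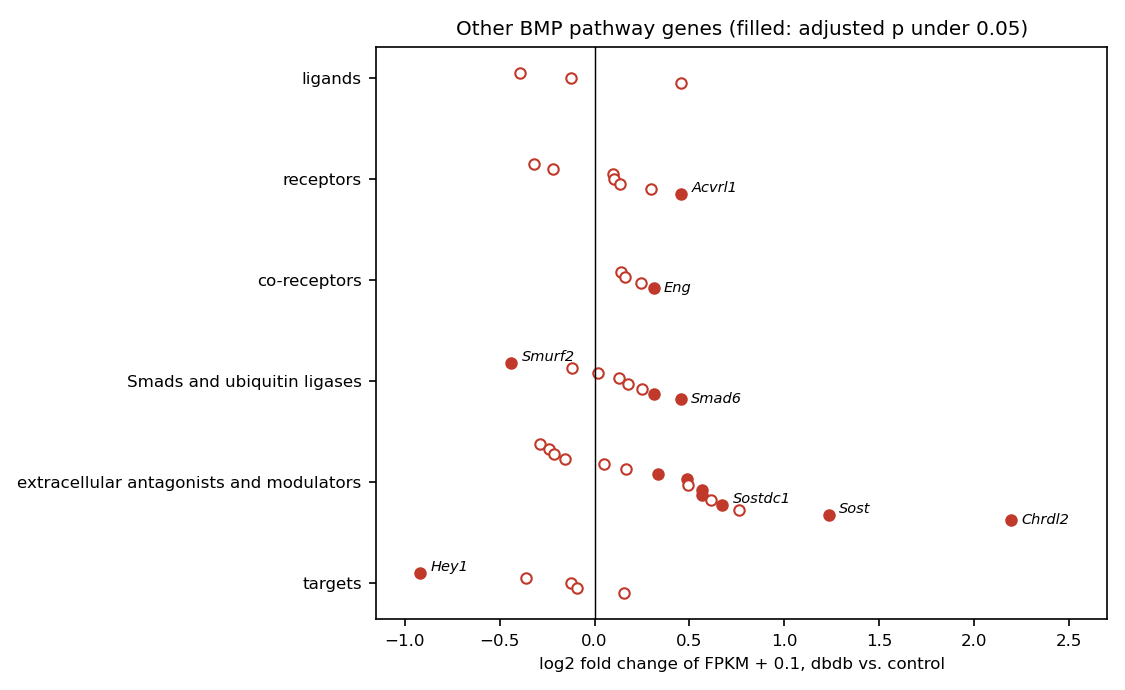
log2 fold change of FPKM + 0.1 in dbdb vs. control of the 43 tested pathway genes outside the 9, by role; filled points had an adjusted p under 0.05 from limma. Among the extracellular antagonists and modulators 7 of 16 points are filled and lie above 0, with Chrdl2 at 2.19 and Sost at 1.24.

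Among the other targets, Id2, Id4, Atoh8, Msx1 and Hey1 passed the filter. Id2, a further Id gene, was at a mean of 257 FPKM, above Id1 and Id3, and differed by -0.36 between dbdb and control mice (adjusted p = 0.138). Hey1, which Notch and ALK1 signals also switch on, was downregulated in dbdb vs. control (-0.92, adjusted p = 0.0208), from 0.348, 0.700 and 0.727 FPKM to 0.253, 0.263 and 0.241, and the call was lost without control replicate 2 or 3 or dbdb replicate 2 or 3 (adjusted p from 0.0504 to 0.0794). Id4 was at 8.11, 13.4 and 8.39 FPKM in control, 7.18, 12.2 and 8.53 in dbdb and 16.9, 16.4 and 15.4 in dbR. All dbR libraries were above all others, and Id4 was upregulated in dbR vs. control (0.74, adjusted p = 0.031). In dbR vs. dbdb its difference was 0.83 (SE 0.21, limma adjusted p = 0.0925). The call in dbR vs. control was lost without control replicate 1 or 3 or without any 1 dbR library (adjusted p from 0.0613 to 0.1).

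The genes whose log2 levels ran closest to each of the 8 tested genes over the 9 libraries were sought among all tested genes, with Pearson's r as the measure and as a description only, since the libraries share the 3 groups. For Chrdl1 they were Abhd2 (r = 0.993) and Cd55 (r = 0.989), and for Bmp2 they were Pros1 (r = 0.991) and Pcdhgc3 (r = 0.988). Bmp6 ran closest to Map3k12 (r = 0.986) and Ampd3 (r = 0.98), and Bmp4 to Chrdl2 (r = 0.965) and Gm21655 (r = 0.962). Id3 ran closest to Lrch1 (r = 0.952) and Cd8a (r = 0.936), Grem1 to Pnpla2 (r = 0.951) and Opn3 (r = 0.941), Id1 to Atp7a (r = 0.946) and Dlg4 (r = 0.942), and Bmp7 to Zfp358 (r = 0.944) and Tmem143 (r = 0.924).

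Among the 461 assembled long noncoding transcripts and the 2031 of 2071 annotated ones that had coordinates, 2 lay within 100 kb of the 9 genes. Gm14453 lies at chr2:173025685-173034580 on the minus strand, 85364 bp from Bmp7, and was at 0.108 to 0.810 FPKM in control, 0.121 to 0.457 in dbdb and 0.108 to 0.196 in dbR. Gm26841 lies at chr2:152694733-152696692 on the minus strand, 39559 bp from Id1, and was at 0.291 to 0.470, 0.227 to 0.644 and 0.235 to 0.571 FPKM. The groups overlapped for both.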

How the data were processed

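Total RNA of the renal cortex of 9 mice was depleted of ribosomal RNA and made into strand-specific libraries, which the authors sequenced as paired reads of 150 bases. Per the labels and the study's methods, reads were aligned to GRCm38.p2 with TopHat (version 2.0.9) and assembled with Cufflinks (version 2.1.1) and Scripture, and the authors deposited FPKM per transcript and library, values already divided by transcript length and mapped fragments. Read counts cannot be had from these values, so no count model was used. The negative binomial test of the study with Cufflinks, which needs aligned reads, was replaced. Depth was estimated from the steps between low FPKM values. The estimated fragments given for single genes are FPKM multiplied by transcript length and depth.

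FPKM were summed per gene over the mRNA transcripts. Genes with a mean of at least 0.1 FPKM entered 1 limma model of the 3 groups on log2(FPKM + 0.1), with a mean-variance trend (limma 3.58.1 under R 4.3.3), two-sided tests and Benjamini-Hochberg adjustment over 14537 genes in each comparison. On this scale the changes of low genes are understated. An exact permutation test of 3 libraries against 3 cannot go below p = 0.1. The libraries are from separate mice. Coordinates of genes are from GENCODE M21 (GRCm38). Python 3.11.15, pandas 2.3.3 and matplotlib 3.10.9 were used for the rest.

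The 9 genes, the pathway lists and the marker lists were chosen with earlier results of these data known. All 9 were named, as was every listed pathway gene called in at least 1 comparison and, where a list had none, its 2 genes with the highest mean. Nog, Chrd, Bmp10, Gdf2, Id2, Atoh8, Msx1, Bmpr1a, Bmpr2, Fstl3, Rgmb, Neo1, Smad4, Smad5 and Smad7 were named after their values were seen. A further gene of the list of extracellular antagonists and modulators is not reported here and is in none of the counts. The alternatives were pseudocounts of 1 and 0.01, no filter, a mean of at least 1 FPKM, scaling to the 75th percentile, leaving out mitochondrial transcripts, the 6 libraries of a comparison alone, the highest transcript of a gene, the replicate number as a block, and leaving out each library.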

Additional observations from a re-analysis of the deposited data

How the results depend on the processing

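Calls of the 9 genes and of the other pathway genes are given with the libraries and settings that end them, in the report or here. Of the marker calls relative to control, those of Slc5a2, Pecam1, Cdh5 and Kdr in dbdb and of Slc12a1, Aqp2, Tek and Pdgfrb in dbR were each lost in 1 to 9 of 18 alternatives, and the others were lost in none. With a mean of at least 1 FPKM, Grem1, Chrdl1 and Bmp2 were not tested and 2 of the 9 genes were called in each comparison with control, and 5 extracellular modulators in dbdb vs. control. Leaving out each library gave 3 to 4 of the 9 genes for dbdb and 2 to 4 for dbR against control (2 without control replicate 3 or dbR replicate 1). The extracellular modulators called were then 6 to 8 for dbdb and 4 to 9 for dbR against control and 0 in dbR vs. dbdb. The 108 genes called in dbR vs. dbdb over all genes became 31 with no filter, 166 with a mean of at least 1 FPKM, 203 with scaling to the 75th percentile, 22 with 6 libraries, 49 with the highest transcript, 23 with the replicate block and 2 to 141 without single libraries.

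Among the 9 genes, differences that were not called changed sign in 3 cases, and of the 99 differences of the other pathway genes that were not called, 28 changed sign in at least 1 alternative. That of Id1 in dbdb vs. control was 0.085 with mitochondrial transcripts left out and between -0.27 and 0.18 without single libraries. For Bmp7 in dbR vs. dbdb the values were -0.058 and between -0.062 and 0.065, and for Chrdl1 in dbR vs. dbdb the value was 0.0046 with the highest transcript. The causes were not tested. Over all tested genes, deviations of same-numbered libraries correlated between -0.175 and 0.062. A correlation over all genes does not show whether single genes followed the replicate number, and this was not tested. Id1 was lowest in replicate 1 and highest in replicate 2 of every group. With the replicate block Id1 was called in dbR vs. control (0.47, limma adjusted p = 0.0138), and Id2 was called as lower in dbdb vs. control (-0.36, adjusted p = 0.0213). Smad9 (adjusted p = 0.0573), Fstl1 (adjusted p = 0.0533) and Bmp1 (adjusted p = 0.0787) lost their calls in dbR vs. control. No other call of the 9 genes and the other pathway genes was lost with the block. Among the markers, Tek, Pdgfrb and Atp6v1g3 lost their calls in dbR vs. dbdb. With no filter Smad9 (adjusted p = 0.0587), Bmp1 (adjusted p = 0.0602) and Id4 (adjusted p = 0.0519) lost their calls in dbR vs. control, as did Smad9 (adjusted p = 0.0569) and Bmp1 (adjusted p = 0.0527) with the highest transcript. With mitochondrial transcripts left out 9 extracellular modulators were called in dbdb vs. control. Bmp7, Bambi, Bmpr1b, Smad1 and Smad5 were among the genes also called as higher there. Bambi was also called with scaling to the 75th percentile and Smad1 with the highest transcript or a mean of at least 1 FPKM. Fstl3, Rgmb and Neo1 were each called as higher in dbdb vs. control in 1 alternative that left out no library. In fits to the 6 libraries alone Bmp8a was also called as higher and Chrd as lower in dbR vs. control, and Bmp1 lost its call. Some fits that left out a library added calls in dbdb vs. control, Bambi and Smad1 as higher and Id2 and Bmpr1a as lower. Such fits also added Bmp8a as higher and Chrd as lower in dbR vs. control. Depth limits the precision for Grem1 and Bmper, which rest on under 12 estimated fragments in some or all libraries.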
